A study of Mus musculus with 30 samples.

Results

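The annexins Anxa1, Anxa2, Anxa4, Anxa5 and Anxa6, the giant scaffold proteins Ahnak and Ahnak2, the ferlins Dysf and Myof, and Trim72 (MG53) are described here across quadriceps muscle and whole spinal cord of mice that lack acid alpha-glucosidase, the lysosomal glycogen-degrading enzyme lost in Pompe disease. They were picked by symbol as 10 of the 17420 genes in the deposited expression table, for their part in resealing torn plasma membrane and with earlier results of these libraries known. Which measured values guided the choice is not recorded, so the quadriceps differences between knockout and wild type, and between treated and untreated knockout, are given below as a description without p-values. Cord values may have guided the choice as well. The p-values printed for cord, and for the remaining quadriceps comparisons, take no account of that and are no independent support. All 10 genes passed the filter on low values in quadriceps (3 or more of the 15 libraries of the tissue with signal 1 or above), and 9 did in cord, where Trim72 did not.

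The libraries came from 15 male mice aged 4 months, each giving quadriceps and cord, in 5 groups of 3 mice. The B6;129 groups were Gaa KO (knockout) and Gaa WT (wild type). The B6;129;DBA2/J background, called the DBA mix here, had Gaa WT mice, Gaa KO mice and treated Gaa KO mice, and all 3 of these groups carried the Ltbp4D36/D36 genotype, so the WT controls of the DBA mix carry it too. Treated mice had received AAV9-sp7-Δ8-hGAAco, an adeno-associated virus vector for a secreted human GAA under the liver-muscle promoter LiMP, into the temporal vein at postnatal day 1 to 2, and no WT mouse and no B6;129 mouse was treated. All B6;129 libraries carry the series letter A in their column names and all DBA mix libraries the letter B, and the background therefore cannot be told apart from the series. The cord is not one of the tissues that promoter is named for, and the part of the promoter in the cord values was not tested.

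Plasma membrane tears are frequent in contracting muscle fibres and let calcium into the cell. Annexins are cytosolic proteins that bind acidic phospholipids when calcium rises and gather at the wound, dysferlin (Dysf) and its relative myoferlin (Myof) are membrane-anchored calcium sensors with many C2 domains that act in vesicle fusion, and Trim72 encodes a muscle-enriched tripartite-motif protein that brings vesicles to the wound. Ahnak binds the complex of annexin A2 with S100A10 and lies at the plasma membrane. Loss of dysferlin causes limb-girdle muscular dystrophy, and many annexins are also abundant in macrophages, fibroblasts and endothelium.

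The promoters of Ahnak2, Anxa2 and Anxa4, 3 of the members with wide quadriceps differences, are shown so that the sequence upstream of them can be read beside the values (RefSeq starts, GRCm38.p6, 5′ to 3′ on the gene's strand, cropped to the bases outside annotated exons, in lower case with AP-1 matches in capitals). The Ahnak2 window is chr12:112795743-112795992 on the minus strand and lies between exons of the wider GENCODE M21 gene, the Anxa2 window is chr9:69453433-69453619 on the plus strand, and the Anxa4 window shown is chr6:86793585-86793834 on the minus strand. Anxa4 has another RefSeq window, chr6:86775115-86775364 on the minus strand, which is not shown.
Ahnak2: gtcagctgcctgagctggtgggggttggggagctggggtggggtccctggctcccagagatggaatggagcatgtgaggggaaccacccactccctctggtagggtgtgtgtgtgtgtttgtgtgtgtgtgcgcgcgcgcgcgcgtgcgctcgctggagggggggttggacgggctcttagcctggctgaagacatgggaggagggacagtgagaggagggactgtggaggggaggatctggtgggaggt
Anxa2: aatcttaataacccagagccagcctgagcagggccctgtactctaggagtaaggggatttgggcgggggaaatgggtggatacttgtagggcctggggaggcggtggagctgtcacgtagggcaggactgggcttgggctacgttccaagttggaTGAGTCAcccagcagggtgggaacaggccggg
Anxa4: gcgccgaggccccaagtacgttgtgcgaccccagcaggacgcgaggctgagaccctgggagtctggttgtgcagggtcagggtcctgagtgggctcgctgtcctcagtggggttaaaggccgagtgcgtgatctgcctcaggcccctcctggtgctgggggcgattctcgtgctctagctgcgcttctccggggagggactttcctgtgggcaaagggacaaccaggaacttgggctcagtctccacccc
The Anxa2 window holds TGAGTCA, a match to the AP-1 motif TGANTCA, at bases 95 to 89 before the start. RefSeq gave 11 windows of 250 bases for 9 of the members and none for Anxa6. On either strand, 1 of the 11 windows held TGANTCA, against 6.75% of 32851 promoters of that length. The E-box CACGTG was in 0 of the 11 windows and in 6.02% of all promoters, and TATAAA was in 2 of the 11 (Anxa1 and Anxa2) and in 12.4% of all. The TATAAA of Anxa2, at bases 17 to 12 before the start, lies in the part cropped from the sequence above. A match is a string of letters, not a binding site, and the motifs do not overlap one another in these windows.

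Depth and identity of the libraries were checked once. Quadriceps libraries held 1.69e+07 to 3.71e+07 recovered reads (median 2.67e+07) and cord libraries 1.92e+07 to 3.42e+07 (median 2.22e+07). The members were covered by 78 to 22500 reads per library in quadriceps and by 9 to 7251 in cord. Mouse Gaa was 275 ± 29.0 (SD, n = 3) in B6;129 WT quadriceps and 15.8 ± 0.43 in KO, and 213 ± 42.7, 14.9 ± 2.91 and 18.0 ± 0.91 in WT, KO and treated KO quadriceps of the DBA mix; the human transgene is not a row of the table. The summed signal of 9 muscle fibre markers was 1.63e+05 to 3.02e+05 in quadriceps and 119.7 to 1757 in cord. That of 6 neuron markers was 1.22 to 7.80 in quadriceps, where Chat had at most 3 reads in every library, and 2231 to 3931 in cord. Mitochondrial genes took 6.99% to 7.70% of the reads of series A cords and 13.2% to 17.1% of series B cords.

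In quadriceps every one of the 10 genes had a higher mean signal in KO than in WT on both backgrounds, and the size ran from 31.8-fold for Ahnak2 on B6;129 to 1.25-fold for Dysf on the DBA mix. Differences are on the scale log2(signal + 0.5), with a standard error (SE) from a linear model over the 15 quadriceps libraries, and a gene is called when its Benjamini-Hochberg adjusted p over all 14113 tested genes is under 0.05. On B6;129, 10 of 10 members were called higher, where 16.7% of all genes were called higher and 35.8% were called in either direction. On the DBA mix 8 of 10 were called higher, against 17.1% of all genes higher and 39.4% in either direction. The members' median difference was 0.82 on each background, and that of all genes was -0.02 and -0.04. These counts describe genes chosen with such results known, and nothing is read from them. The same quantities hold bulk tissue, in which fewer cells of a type and less RNA per cell cannot be told apart.

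**Figure D1:**
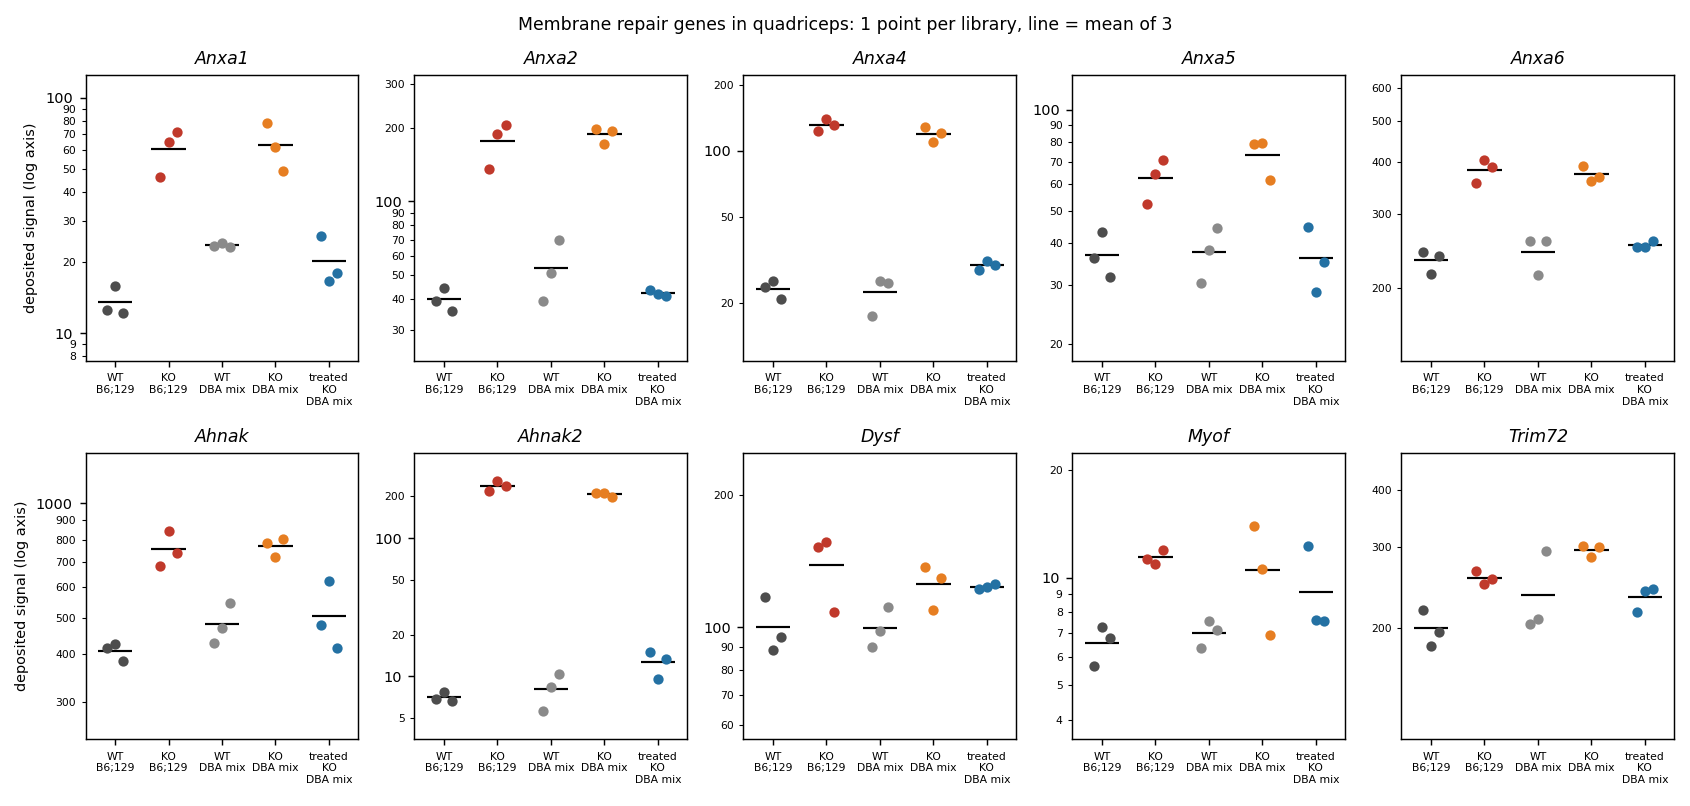
Deposited signal (log axis) of the 10 members in each of the 15 quadriceps libraries, by group, with 1 point per library and a line at the mean of 3. In Ahnak2 the 6 untreated KO libraries lie between 198 and 258 and the 9 others between 5.62 and 15.1.

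Ahnak2, a paralogue of Ahnak with a PDZ domain and long repeats, was among the members with the least signal in WT quadriceps and had the widest KO difference. Its signal was 6.81, 7.69 and 6.58 in the 3 B6;129 WT quadriceps and 220.0, 258 and 239 in the 3 KO quadriceps. The DBA mix gave 5.62, 8.33 and 10.5 in WT, 210.1, 212 and 198 in KO, and 15.1, 9.51 and 13.4 in treated KO. All 6 untreated KO values lay far above all 9 others, and the lowest KO value of B6;129 lay above the highest of the DBA mix. The differences were 4.99 ± 0.18 (31.8-fold) on B6;129 and 4.62 ± 0.18 (24.7-fold) on the DBA mix, and treated KO was lower than untreated KO by a log2 difference of -4.00 ± 0.18 (16.0-fold). The comparisons on the DBA mix share the untreated KO libraries. The GENCODE M21 gene of Ahnak2 (chr12:112772194-112802657) holds 4 coding transcripts. Its level per length rests on their joined exons, as it does for the other members.

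Ahnak, which lies under the plasma membrane and binds annexin A2 with S100A10, was already abundant in WT. It measured 415, 426 and 384 in B6;129 WT and 684, 847 and 739.9 in KO, without overlap. WT of the DBA mix gave 429, 469.9 and 544, KO gave 783, 723 and 802, and treated KO gave 479, 622 and 416. Every KO library lay above every WT and treated library, and 1 of the 3 treated values lay inside the WT range. The differences were 0.89 ± 0.13, 0.68 ± 0.13 and, with treatment, -0.62 ± 0.13.

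Among the annexins Anxa4 had the widest separation between groups. Anxa4, which binds membranes in a calcium-dependent manner and is best known from epithelia, gave 23.8, 25.3 and 20.8 in B6;129 WT and 123, 140.0 and 132 in KO. The DBA mix values were 17.5, 25.2 and 24.9 in WT, 128, 110.1 and 121 in KO, and 28.3, 31.4 and 29.9 in treated KO. The treated values formed a separate step just above all 6 WT values and far below all 6 KO values. The differences were 2.47 ± 0.12 (5.56-fold), 2.40 ± 0.12 (5.28-fold) and -1.98 ± 0.12 with treatment.

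Anxa1 and Anxa2 followed with differences near 2 on B6;129. Anxa1, a glucocorticoid-regulated annexin abundant in myeloid cells, gave 12.5, 15.9 and 12.2 in B6;129 WT, 46.1, 65.3 and 71.4 in KO, and on the DBA mix 23.4, 24.1 and 23.3 in WT, 78.6, 62.0 and 48.7 in KO and 25.8, 16.7 and 18.0 in treated KO. The WT values of the DBA mix all lay above those of B6;129, and no treated value lay inside their narrow range. Anxa2, which pairs with S100A10 and promotes membrane bridging, gave 39.5, 44.6 and 36.0 in B6;129 WT and 135, 189 and 205 in KO. Anxa2 on the DBA mix gave 39.5, 51.2 and 69.8 in WT, 197, 171 and 194 in KO, and 43.7, 42.0 and 41.3 in treated KO. Anxa2 in treated KO fell wholly inside the WT range. The Anxa1 differences were 2.12 ± 0.20, 1.37 ± 0.20 and -1.62 ± 0.20, and the Anxa2 differences 2.11 ± 0.18, 1.84 ± 0.18 and -2.13 ± 0.18.

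Anxa5 and Anxa6 differed less. Anxa5, which forms ordered arrays on exposed phosphatidylserine, gave 36.1, 43.2 and 31.8 in B6;129 WT and 52.4, 64.4 and 71.0 in KO. In DBA mix mice Anxa5 gave 30.3, 38.2 and 44.4 in WT, 78.8, 79.7 and 61.6 in KO, and 44.6, 28.5 and 35.2 in treated KO. Its treated values spanned slightly more than the WT range on each side. Anxa6, the largest annexin and a modifier of disease severity in dystrophic mice, gave 245, 216 and 238 in B6;129 WT and 356, 403 and 389 in KO. Anxa6 on the DBA mix gave 259, 215 and 259 in WT, 391, 360.4 and 368 in KO, and 251, 251 and 259.7 in treated KO. No KO library overlapped a WT or treated library for either gene. The differences were 0.75 ± 0.18, 0.96 ± 0.18 and -1.03 ± 0.18 for Anxa5, and 0.72 ± 0.08, 0.61 ± 0.08 and -0.55 ± 0.08 for Anxa6.

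The ferlins Dysf and Myof and Trim72, which act with vesicles at the wound, were the members whose KO and WT libraries overlapped on at least 1 background. Dysf gave 117, 89.0 and 95.1 in B6;129 WT and 152, 156 and 109 in KO, and on the DBA mix 90.2, 98.2 and 111 in WT, 138, 109 and 129.7 in KO and 123, 124 and 125 in treated KO. A KO library lay inside the WT range on each background, while the 3 treated values were close together and above all 3 WT values. The differences were 0.46 ± 0.14 on B6;129, 0.33 ± 0.14 on the DBA mix (not called, 95% interval 0.03 to 0.63) and -0.01 ± 0.14 with treatment (not called, -0.31 to 0.29). The B6;129 call was lost without KO mouse 1 (0.38), KO mouse 2 (0.37), WT mouse 5 (0.38) or WT mouse 6 (0.43). Dysf was called on the DBA mix without KO mouse 7 (0.42) and under quantile normalization (0.45).

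Myof, the ferlin of myoblasts and of many non-muscle cells, was low throughout. It gave 5.65, 7.29 and 6.76 in B6;129 WT and 11.3, 10.9 and 12.0 in KO, and on the DBA mix 6.34, 7.56 and 7.12 in WT, 14.0, 10.6 and 6.92 in KO and 12.2, 7.63 and 7.55 in treated KO. On B6;129 the groups did not overlap, whereas 1 KO library of the DBA mix sat among the WT values, and all 3 treated values lay inside the wide KO range. The differences were 0.76 ± 0.22, 0.50 ± 0.22 (not called, 0.03 to 0.98) and -0.17 ± 0.22 with treatment (not called, -0.65 to 0.30). The B6;129 call was lost without KO mouse 3 (0.72) or WT mouse 4 (0.66), and on the DBA mix Myof was called without KO mouse 8 (0.76).

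Trim72 gave 219, 183 and 196 in B6;129 WT and 266, 249 and 256 in KO, and on the DBA mix 204, 209.7 and 294 in WT, 302, 286 and 300.2 in KO and 217, 241 and 243 in treated KO. WT mouse 4 of the DBA mix, at 294, lay among the KO values, and the treated values all lay inside the WT range. The differences were 0.37 ± 0.12, 0.35 ± 0.12 and -0.34 ± 0.12 with treatment. The B6;129 call was lost without KO mouse 1 (0.34), KO mouse 3 (0.37), WT mouse 5 (0.31) or WT mouse 6 (0.36). The DBA mix call was lost without KO mouse 6 (0.33), KO mouse 8 (0.34), WT mouse 1 (0.25) or WT mouse 3 (0.27), and the treatment call without KO mouse 6 (-0.33), KO mouse 8 (-0.33) or treated mouse 21 (-0.29).

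With treatment, 8 of 10 members were called lower in quadriceps, where 17.1% of all genes were called lower and 40.6% were called in either direction. The 8 were the annexins, both Ahnak genes and Trim72, and the uncalled were Dysf and Myof. The libraries did not overlap, with all treated below all untreated, for these 8 genes as well, against 21.6% of all genes. In KO against WT, 9 members on B6;129 (24.9% of all genes) and 7 on the DBA mix (20.6% of all genes) had every KO library above every WT library. The median member difference with treatment was -0.83 and that of all genes 0.05. The choice of members may have used these same quadriceps differences, so the counts are a description and nothing is read from them.

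**Figure D2:**
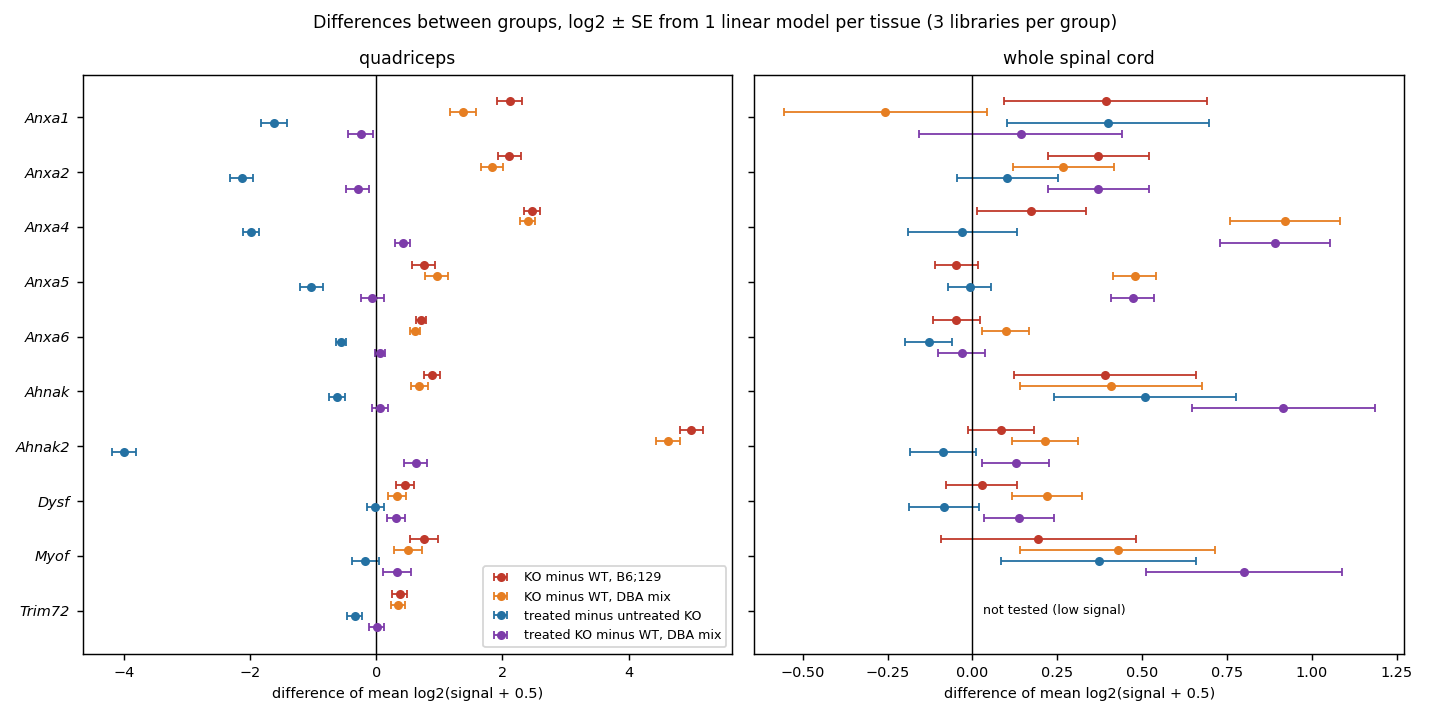
Log2 differences of the members ± SE in quadriceps and in cord for 4 comparisons (KO minus WT on each background, treated minus untreated KO, treated KO minus WT), with separate horizontal scales. In quadriceps the treated minus WT points lie between -0.30 and 0.62, and in cord Anxa4 and Anxa5 of the DBA mix lie apart from 0 with and without treatment.

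Whether treated quadriceps still differed from WT was asked by a direct comparison on the DBA mix. It uses the same WT and treated libraries as above. By limma's moderated test 0 of 10 members were called, 3 had an unadjusted p under 0.05, and edgeR's quasi-likelihood test on the recovered reads also called 0; 2.98% of all genes were called. Of the 30 treated values 12 lay inside the range of the WT libraries. Ahnak2 was 0.62 ± 0.18 above WT (limma adjusted p = 0.0772, interval 0.23 to 1.02), with 2 of 3 treated values above the WT range. Leaving out WT mouse 4 moved the Ahnak2 difference to 0.82 (limma adjusted p = 0.0419), the only member call that leaving out a library made in this comparison. Anxa4 was 0.42 ± 0.12 above WT, with every treated value above every WT value (limma adjusted p = 0.0779, interval 0.15 to 0.69). Dysf was 0.32 ± 0.14 above WT in the same sense (limma adjusted p = 0.206, interval 0.01 to 0.62). Trim72 differed by 0.00 ± 0.12 (limma adjusted p = 0.990, interval -0.24 to 0.25), Anxa2 by -0.30 ± 0.18 (limma adjusted p = 0.353, interval -0.68 to 0.09), and the other members by -0.25 to 0.33.

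The background comparison in quadriceps found no member whose KO difference was called different between the DBA mix and B6;129. It is built from the quadriceps KO differences that the choice of members may have used. It is therefore given as a description without p-values, and nothing is read from it. By limma 0 of 10 were called (0.283% of all genes), and edgeR called 0. Anxa1 lay furthest from 0, with a KO difference that was smaller on the DBA mix by -0.74 ± 0.28 (interval -1.35 to -0.13). In WT quadriceps Anxa1 was higher on the DBA mix than on B6;129 by 0.79 ± 0.20 (limma adjusted p = 0.0555, interval 0.36 to 1.22). No member was called in that WT comparison either by limma (0 of 10, 2.57% of all genes, 1 with an unadjusted p under 0.05) or by edgeR (0).

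In cord Anxa5 and Anxa4 rose in KO against WT on the DBA mix, and no member was called on B6;129. Both genes had similar levels in treated and untreated KO cords. By limma 0 of 9 members were called on B6;129 (1.16% of all genes, 1 member with an unadjusted p under 0.05, 0 by edgeR). On the DBA mix 2 of 9 were called, both higher, against 7.16% of all genes higher and 13.0% in either direction. The median member difference was 0.17 and 0.27, and that of all 15838 tested genes -0.02 and -0.01.

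**Figure D3:**
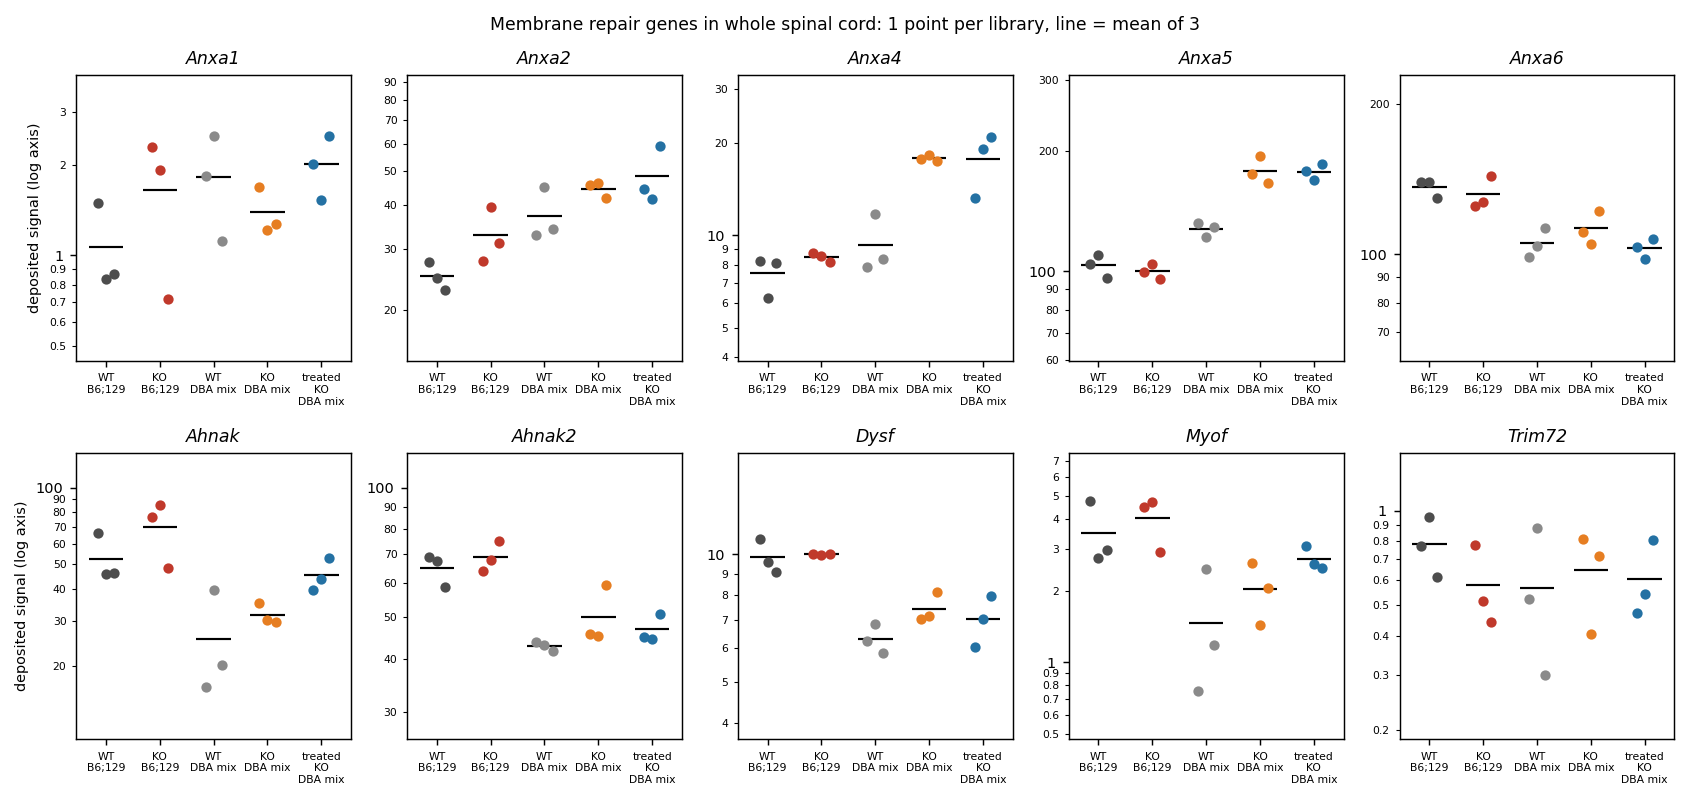
Deposited signal (log axis) of the 10 members in each of the 15 cord libraries, by group, with 1 point per library and a line at the mean of 3. Anxa5 lies at 166 to 193 in KO and treated KO of the DBA mix and at 95.6 to 132 in the other 9 libraries.

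Anxa5 shared the top level per length among the members in B6;129 WT cord with Anxa6, whose libraries overlapped its own. It gave 104, 109.6 and 96.0 in B6;129 WT and 99.6, 104 and 95.6 in KO. Among DBA mix cords it gave 132, 122 and 129 in WT, 175, 193 and 166 in KO, and 178, 168 and 185 in treated KO. KO and treated values lay together above all WT values on the DBA mix, and the B6;129 groups overlapped. The KO difference on the DBA mix was 0.48 ± 0.06 (limma adjusted p = 0.000488), and on B6;129 it was -0.05 ± 0.06 (limma adjusted p = 0.856, interval -0.18 to 0.09). The 2 KO differences differed by 0.53 ± 0.09 (limma adjusted p = 0.0144), and Anxa5 was the only member called in that test (1 of 9, 0.524% of all genes). Treated cords differed from untreated KO cords by -0.01 ± 0.06 (limma adjusted p = 0.985, interval -0.14 to 0.13).

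Anxa4 gave 8.27, 6.24 and 8.11 in B6;129 WT cord and 8.74, 8.57 and 8.20 in KO cord. Among DBA mix cords Anxa4 gave 7.88, 11.7 and 8.36 in WT, 17.7, 18.3 and 17.5 in KO, and 13.3, 19.1 and 20.9 in treated KO. The KO and treated values of the DBA mix lay above all 9 other cords. The KO difference was 0.92 ± 0.16 there (limma adjusted p = 0.00327) and 0.17 ± 0.16 on B6;129 (limma adjusted p = 0.767). The difference between those differences, 0.75 ± 0.23, was not called (limma adjusted p = 0.202, interval 0.26 to 1.24).

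Markers of other cells moved with KO in cord too. The summed signal of 12 macrophage markers was 150.4 to 155 in B6;129 WT, 362 to 367 in KO, 155 to 185 in WT of the DBA mix, 334 to 378 in KO and 214 to 328 in treated KO. Of these markers 7 of 12 rose on B6;129 and 9 of 12 on the DBA mix. Microglia markers summed to 192 to 203, 263 to 284, 179 to 189, 291 to 295 and 237 to 307 in the same order, with 2 of 6 and 5 of 6 higher. Astrocyte markers summed to 2339 to 2681, 3502 to 3841, 2300.3 to 2497, 4053 to 4373 and 3995 to 4918, with 2 of 6 higher on each background. Of all genes, 0.998% were called higher in KO cord on B6;129 and 7.16% on the DBA mix. No marker of these 3 lists was at or under 3 reads in every cord library. The summed levels of all 3 lists were separate between KO and WT on both backgrounds. Endothelial markers summed to 156 to 177, 163 to 185, 71.1 to 75.0, 99.8 to 115 and 79.1 to 107 in the same order. Smooth muscle and pericyte markers summed to 155 to 180, 141 to 153, 68.4 to 76.6, 87.3 to 98.4 and 93.0 to 99.4. Both sums were higher in KO than in WT without overlap on the DBA mix. On B6;129 the endothelial sums overlapped. The smooth muscle and pericyte sums there went the other way, with KO (141 to 153) below WT (155 to 180) without overlap. The part of all these markers in the Anxa4 and Anxa5 results was not tested.

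Ahnak varied widely within cord groups. It gave 66.1, 45.8 and 46.2 in B6;129 WT, 76.3, 85.6 and 48.6 in KO, 16.5, 39.7 and 20.2 in WT of the DBA mix, 35.1, 30.1 and 29.8 in KO and 39.7, 43.8 and 52.9 in treated KO. The highest WT value of the DBA mix, that of mouse 3, lay above all 3 KO values. Treated KO was above WT by 0.92 ± 0.27 (limma adjusted p = 0.0321), and the call was lost with edgeR (0.83, adjusted p = 0.0617) and without treated mouse 22 (0.94), treated mouse 24 (0.80), WT mouse 1 (0.66) or WT mouse 4 (0.80). Untreated KO against WT was 0.41 ± 0.27 (limma adjusted p = 0.340) and became 0.77 (limma adjusted p = 0.0338) without WT mouse 3. Fibroblast markers summed to 194 in the cord of WT mouse 3, against 68.4 and 98.0 in the other WT cords of the DBA mix, Schwann cell markers to 652 against 353 and 354, and muscle fibre markers to 1757 against 602 and 249. In treated cords, fibroblast markers summed to 125 to 221, Schwann cell markers to 505 to 1017 and muscle fibre markers to 247 to 1496. The part of these markers in the Ahnak values was not tested.

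Ahnak2 was 68.9, 67.7 and 58.6 in B6;129 WT cord and 63.8, 67.7 and 75.3 in KO, and 43.7, 43.0 and 41.6 in WT, 45.7, 45.2 and 59.2 in KO and 45.0, 44.5 and 50.9 in treated KO of the DBA mix. The gene with the widest quadriceps difference had KO differences in cord of 0.08 ± 0.10 (limma adjusted p = 0.828, interval -0.13 to 0.29) and 0.21 ± 0.10 (limma adjusted p = 0.167, interval 0.00 to 0.42). Anxa2 in KO cord differed by 0.37 ± 0.15 (limma adjusted p = 0.357, interval 0.05 to 0.69) and 0.27 ± 0.15 (limma adjusted p = 0.254, interval -0.05 to 0.59). Anxa1, with 0.715 to 2.49 of signal across all cords, and Myof, with 0.76 to 4.75, had overlapping groups in both KO comparisons. Anxa6 and Dysf had KO differences of at most 0.22 in size. Trim72 ranged from 0.30 to 0.96, under the filter, and was not tested.

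Treated against untreated KO cord called 0 of 9 members and 0 of all genes by limma (0%), with 0 members at an unadjusted p under 0.05. By edgeR 0 members and 2 genes of the table were called. The members' median was -0.01, and the members' differences ran from -0.13 for Anxa6 to 0.51 for Ahnak, whose interval was -0.07 to 1.08. Treated KO against WT cord called 3 of 9, all higher (Ahnak, Anxa4 and Anxa5), against 8.81% of all genes higher and 16.8% in either direction. Anxa4 was 0.89 ± 0.16 above WT (limma adjusted p = 0.00286) and Anxa5 0.47 ± 0.06 (limma adjusted p = 0.000525). Without WT mouse 3, Anxa2 (0.51) and Myof (1.14) were also called.

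Cords of the 2 backgrounds differed for most genes of the table, and the members went both ways. In WT cord 7 of 9 members were called between the DBA mix and B6;129, (2 higher, 5 lower), against 66.8% of all genes (32.3% higher, 34.5% lower), a share near the background. Anxa2 (0.56 ± 0.15, limma adjusted p = 0.00415) and Anxa5 (0.30 ± 0.06, limma adjusted p = 0.000627) were higher on the DBA mix. Ahnak (-1.12 ± 0.27), Myof (-1.08 ± 0.29), Ahnak2 (-0.60 ± 0.10), Dysf (-0.60 ± 0.10) and Anxa6 (-0.37 ± 0.07) were lower. The Anxa5 difference was 0.07 under quantile normalization and not called (limma adjusted p = 0.325). Endothelial markers, all 8 lower, summed to 156 to 177 in B6;129 WT cord and 71.1 to 75.0 in WT cord of the DBA mix. Other lists were separate between these WT cords as well. In the same order, smooth muscle and pericyte markers summed to 155 to 180 and 68.4 to 76.6. Oligodendrocyte markers (14440 to 15333 and 24651 to 33640) and neuron markers (2480 to 2531 and 3366 to 3931) went the other way. The background cannot be told apart from the series of libraries here.

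The tissue difference of each effect came from 1 model over all 30 libraries and the 13187 genes kept in both tissues. It contains the quadriceps differences that the choice of members may have used, so it is given as a description without p-values and nothing is read from the counts. The KO difference was called larger in quadriceps than in cord for 6 of 9 members on B6;129 (12.2% of all genes, 25.4% in either direction) and for 5 of 9 on the DBA mix (13.6%, and 32.3% in either direction). Ahnak2 differed most, by 4.91 ± 0.22 and 4.41 ± 0.22. Anxa1, Anxa2, Anxa4 and Anxa6 were called on both backgrounds, and Anxa5 on B6;129 (0.80 ± 0.20). Anxa5 on the DBA mix gave 0.48 ± 0.20, not called without the mouse as a block and called with it. The treatment difference was called more negative in quadriceps for 7 of 9 members (14.0% of all genes, 33.6% in either direction), all but Dysf (0.07 ± 0.18, interval -0.29 to 0.44) and Myof (-0.54 ± 0.38, interval -1.33 to 0.25).

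Levels were also compared between genes after division by exon length in kilobases. In B6;129 WT quadriceps the order was Anxa6 (93.6 per kb), Trim72 (89.3), Anxa2 (22.9), Anxa5 (21.4), Ahnak (20.9), Dysf (13.9), Anxa4 (10.6), Anxa1 (7.14), Myof (0.899) and Ahnak2 (0.496). In B6;129 WT cord it was Anxa5 (59.7), Anxa6 (54.9), Anxa2 (14.3), Ahnak2 (4.59), Anxa4 (3.42), Ahnak (2.70), Dysf (1.37), Anxa1 (0.563), Myof (0.478) and Trim72 (0.350). Neighbours in these orders overlapped for Anxa6 with Trim72 and for Anxa2 with Anxa5 and Anxa5 with Ahnak in quadriceps, and for Anxa5 with Anxa6, Anxa4 with Ahnak, Anxa1 with Myof and Myof with Trim72 in cord; the other neighbours were separate. Of the 10 genes only Ahnak2 and Anxa5 had more deposited signal in WT cord than in WT quadriceps on B6;129, by 9.26-fold and 2.79-fold. Trim72 was 255-fold higher in quadriceps, Anxa1 12.7-fold, Dysf 10.2-fold and Ahnak 7.75-fold. These folds rest on the deposited scaling, in which all genes of WT mouse 4 summed to 1.48e+06 in quadriceps and 6.13e+05 in cord. That mouse had 20487557 recovered reads in quadriceps and 21072643 in cord. Anxa6 had 3395 and 4813 of them, and Anxa2 548 and 944. As shares of reads both genes were therefore higher in its cord, so their direction between tissues depends on the scaling.

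The order of the 5 quadriceps groups separated the genes further. Both untreated KO groups ranked first and second for all 10. The step from the lower KO group to the next group was free of overlap for Ahnak2, Anxa1, Anxa2, Anxa4, Anxa5, Anxa6 and Ahnak, while for Dysf, Myof and Trim72 neighbouring groups overlapped there. The KO groups of the 2 backgrounds overlapped for 8 genes and were separate for Ahnak2, higher on B6;129, and for Trim72, higher on the DBA mix. For Dysf the treated group came after the KO groups and lay above both WT groups, with its nearest WT library at 117.

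Other genes of membrane repair were taken from 7 lists with 45 genes, chosen with earlier results known. Of the 40 tested in quadriceps, 18 were higher and 5 lower in KO on B6;129, 15 higher and 8 lower on the DBA mix, and 10 higher and 15 lower with treatment. Of all genes, 16.7% were higher and 19.0% lower on B6;129, 17.1% and 22.3% on the DBA mix, and 23.6% and 17.1% with treatment. In treated KO against WT limma called 0 of the 40, against 2.98% of all genes. The S100 proteins, calcium-binding partners of annexins and Ahnak, had 4 of 6 higher on both backgrounds and 4 of 6 lower with treatment. S100a4 had the widest difference of the partners, 4.35 ± 0.23 and 3.86 ± 0.23 in KO and -4.60 ± 0.23 with treatment. S100a6 (1.97 ± 0.15 on B6;129, -1.60 ± 0.15 with treatment) and S100a1, a striated muscle S100 (1.04 ± 0.10 on the DBA mix, -1.12 ± 0.10 with treatment), had differences in the same directions. S100a10, the partner of annexin A2, is added for that role after its values were seen and gave 1.64 ± 0.20, 1.09 ± 0.20 and -1.44 ± 0.20.

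Of the other annexins 4 of 7 were tested, and Anxa8 was higher by 3.63 ± 0.30 on B6;129. Of the 5 calpain genes, the shared small subunit Capns1 (0.88 ± 0.07 and 0.65 ± 0.07) and Capn2 (0.78 ± 0.08 on the DBA mix) were higher in KO, and Capn3, the muscle calpain mutated in a limb-girdle dystrophy, was higher with treatment (0.70 ± 0.08). The other ferlins had 0 higher on both backgrounds, with 1 of 2 and 2 of 2 lower. Caveolar and dysferlin partner genes went both ways (4 higher and 3 lower of 10 on B6;129, 1 and 3 on the DBA mix). Genes of the ESCRT machinery, which pinches off damaged membrane, had 4 of 7 and 5 of 7 higher and none lower, and lysosomal exocytosis genes 1 higher and 0 lower of 6, and 1 and 2.

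**Figure D4:**
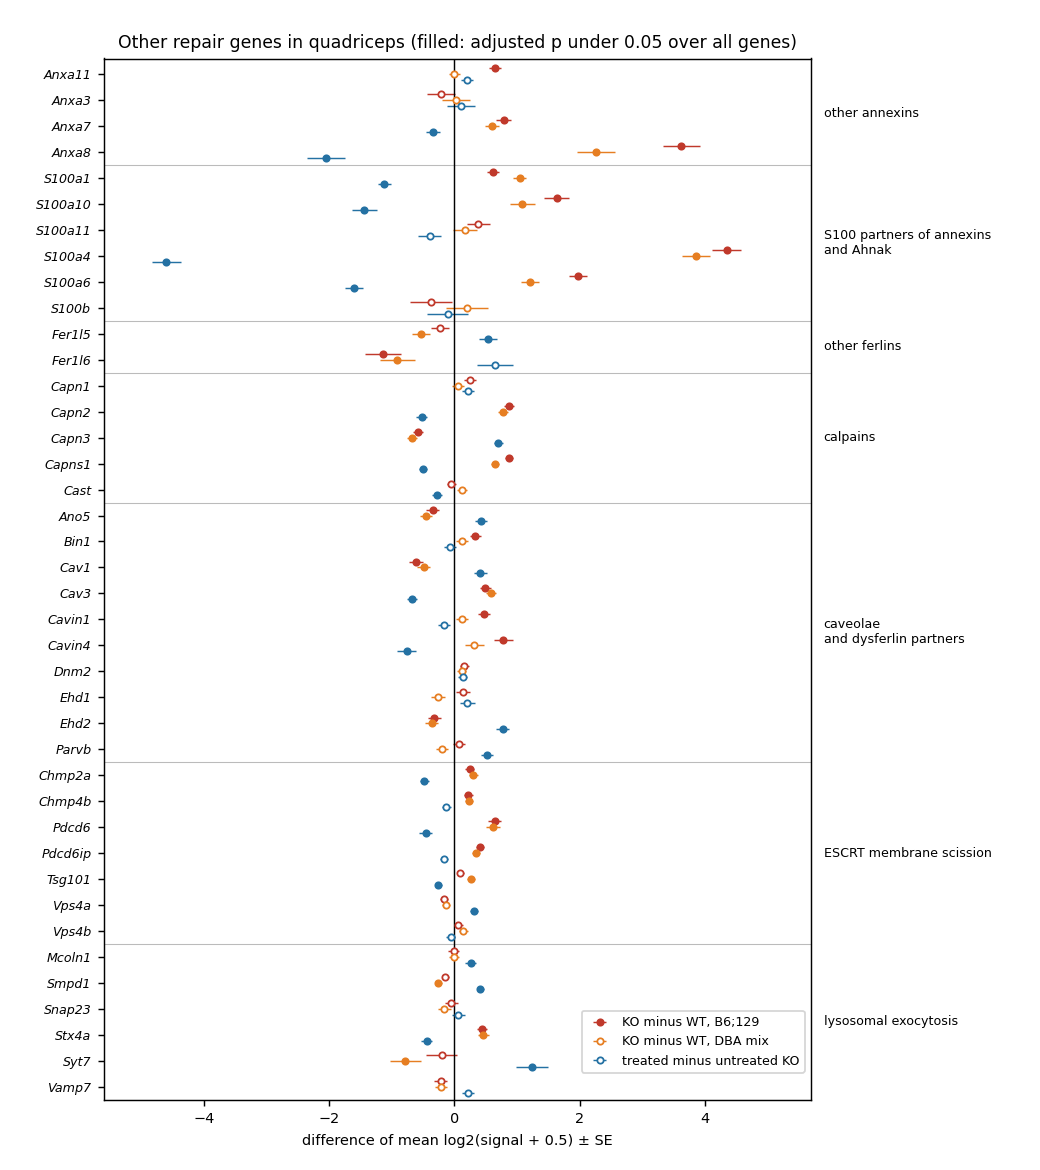
Log2 differences ± SE in quadriceps of the 40 tested partner genes, by list, for KO minus WT on each background and treated minus untreated KO; filled points are called. S100a4 lies at 4.35, 3.86 and -4.60, and most other points lie within 1 of 0.

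In cord 2 of 38 tested partners were higher in KO on B6;129, S100a1 (0.58 ± 0.09, limma adjusted p = 0.00334) and S100a6 (0.97 ± 0.21, limma adjusted p = 0.0400), and none was lower (0.998% of all genes higher, 0.158% lower). In DBA mix cords 5 were higher and 4 lower (7.16% and 5.85% of all genes). S100a1 (0.76 ± 0.09, limma adjusted p = 0.000178), Dnm2, a dynamin of membrane scission (0.44 ± 0.06, limma adjusted p = 0.00107), and Anxa3 (0.85 ± 0.20, limma adjusted p = 0.0153) were higher, and Chmp4b, an ESCRT subunit, was lower (-0.21 ± 0.04, limma adjusted p = 0.00600). Treatment called 0 of 38 in cord by limma.

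The summed signals of several cell type lists differed with KO and with treatment in quadriceps beside the members. The 12 macrophage markers summed to 76.4 to 105 in B6;129 WT and 366 to 474 in KO, and to 133 to 197 in WT, 301 to 614 in KO and 94.2 to 233 in treated KO of the DBA mix. They had 12 of 12 higher, 10 of 12 higher and, with treatment, 10 of 12 lower, and no marker of the list was at or under 3 reads in every library. The 7 markers of regenerating fibres, such as Myh3 and Myog, summed to 38.9 to 62.0, 271 to 391, 40.0 to 47.1, 250.2 to 295 and 39.8 to 54.2 in the same order, with 7 of 7 called in each of the 3 comparisons. The 10 fibroblast markers summed to 601 to 919.96, 1379 to 1571, 907 to 1052, 1065 to 2077 and 980.03 to 1537, with 6 and 5 of 10 higher and 2 of 10 lower with treatment. Endothelial markers went the other way, with 7 and 5 of 8 lower in KO and 6 of 8 higher with treatment. The 9 muscle fibre markers summed to 222834 to 241989 in B6;129 WT and 177405 to 191765 in KO, and to 228561 to 262367 in WT, 162664 to 189130 in KO and 285049 to 302338 in treated KO of the DBA mix. Their KO sums lay below all WT sums on each background and their treated sums above all WT sums, while 2 and 4 of the 9 were called lower in KO and 5 of 9 higher with treatment. Smooth muscle and pericyte markers summed to 434 to 559 and 293 to 349 on B6;129, and to 395 to 422, 230.3 to 337 and 345 to 479 on the DBA mix, with 2 higher and 2 lower of 6 on B6;129, 1 and 3 on the DBA mix, and 3 and 1 with treatment. Of all genes, 16.7% were called higher and 19.0% lower on B6;129, 17.1% and 22.3% on the DBA mix, and 23.6% and 17.1% with treatment. Some marker counts lie near these shares, such as 2 of 9 muscle fibre markers lower on B6;129 and 2 of 10 fibroblast markers lower with treatment. The part of these markers in the members' results was not tested.

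Within groups, some members varied with these sums from mouse to mouse. Over the 15 quadriceps libraries, with each group's mean removed, Myof had r = 0.88 with macrophage markers and 0.80 with fibroblast markers. Its r with microglia markers, a list that shares Csf1r with the macrophage list, was 0.90. Anxa5 had r = 0.81 with macrophage markers. Over the 15 cord libraries Ahnak had r = 0.90 with fibroblast markers and 0.89 with Schwann cell markers. Trim72, under the filter in cord, had r = 0.86 with muscle fibre markers and -0.87 with neuron markers. Pairs of members had a median r of 0.25 in quadriceps (45 pairs, 35 above 0) and 0.31 in cord (45 pairs, 31 above 0). These are descriptions over few libraries that share their scaling and depth, and no p is given.

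**Figure D5:**
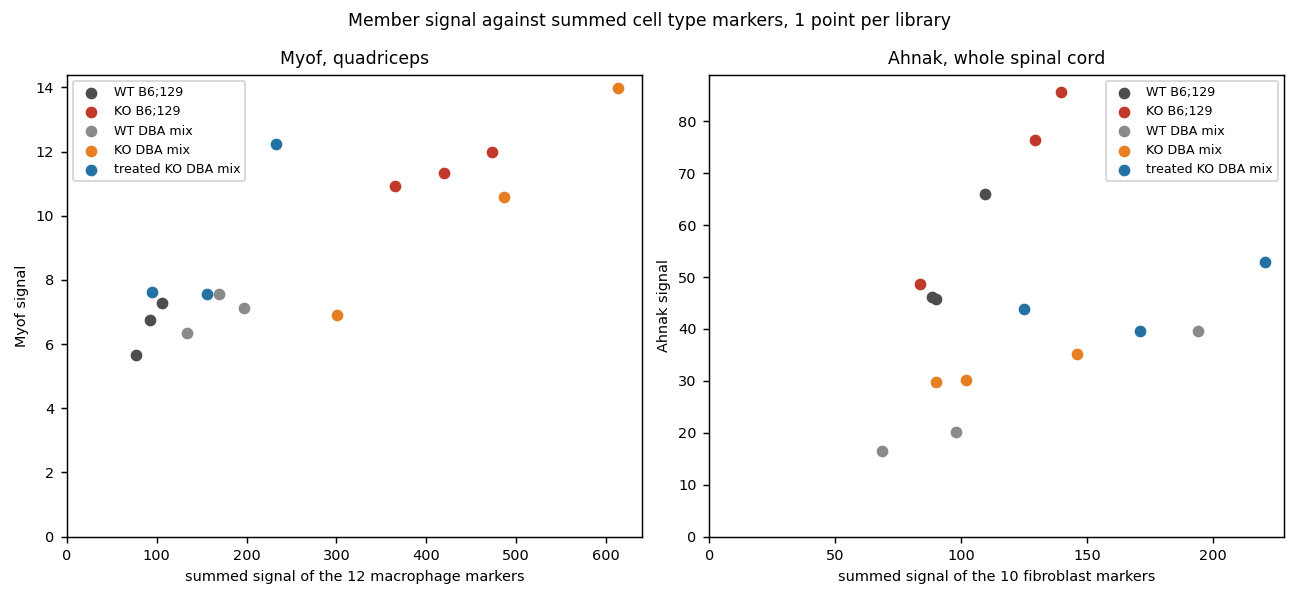
Myof signal against the summed signal of 12 macrophage markers in the 15 quadriceps libraries, and Ahnak signal against the summed signal of 10 fibroblast markers in the 15 cord libraries, coloured by group. The untreated KO library of the DBA mix with the highest macrophage sum, 614, also has the highest Myof signal, 14.0, and in cord the WT library of the DBA mix at 194 has the highest Ahnak signal of its group, 39.7.

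The genes most like Anxa2 and Dysf over the 15 quadriceps libraries were ranked by Pearson's r of log2(signal + 0.5), members left out. For Anxa2 they were Tuba1b (0.993), Sgms2 (0.993), Atp6v1a (0.990), Tmem43 (0.987) and Fmn1 (0.986). For Dysf they were Ap2b1 (0.893), Ap2a2 (0.853), Nploc4 (0.841), Eif3b (0.840) and Usp6nl (0.822). The 15 libraries hold the KO differences that the choice of members may have used, and they share scaling and depth.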

How the data were processed

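Polyadenylated RNA of 30 libraries (15 mice, quadriceps and cord of each) was sequenced as single-end reads of 61 bases, per the labels' protocols. The deposited signal is a normalized value per gene. The submitters' processing notes name cutadapt, RSEM, limma, edgeR and GRCm38 without versions, roles or order. In every library the values less an offset are whole multiples of what 1 read is worth (100% of values within 0.001), so the reads could be recovered for a count test. All libraries were on 1 table, and 265 rows had no gene name.

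Differences of log2(signal + 0.5) were fitted with limma 3.58.1 (moderated test with trend, R 4.3.3), all 5 groups of a tissue in 1 fit, on the 14113 quadriceps and 15838 cord genes whose signal reached 1 in 3 or more libraries, and on 13187 genes over both tissues for tissue differences. P-values were Benjamini-Hochberg adjusted over all genes of a fit. The fits were also run on simulated reads in which 200 genes were changed, in the treated group only. Far more genes than that were called in quadriceps, and no result here rests on the simulated run. Alternatives were a pseudocount of 2, a filter at 4, no filter, quantile normalization, edgeR 4.0.16 quasi-likelihood tests on the recovered reads, the mouse as a block in the tissue fits, and leaving out each library.

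The members, the partner lists and the marker lists were chosen with earlier results of these data known. All members are named. From the partner lists the text names the 4 called genes with the smallest adjusted p in each KO and treatment comparison of each tissue, plus S100a10. The 5 genes most like Anxa2 and Dysf were ranked by correlation over the quadriceps libraries. Exon lengths and positions come from GENCODE M21, promoters from RefSeq (GRCm38.p6). The 3 treated cord columns were joined to mice by the number in the sample titles.

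Quadriceps and cord of a mouse share an animal, per the labels. With group means removed, the own cord was the best match of the quadriceps in 15 of 15 mice (r 0.109 to 0.354 across genes). Replicates are separate mice. One read was worth a signal of 0.0329 to 0.0720 in quadriceps and 0.0179 to 0.0369 in cord.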

Additional observations from a re-analysis of the deposited data

Results flagged for a closer look

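These results are listed because the difference between 2 effects had a limma adjusted p under 0.05, either between the backgrounds or between the tissues. The tissue differences contain the quadriceps differences that the choice of the genes is taken to have used, so they are descriptions and passing the threshold is no support for them. The causes were not tested.

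Between backgrounds, the KO difference of Anxa5 in cord was larger on the DBA mix than on B6;129 by 0.53 on the log2 scale.

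Between tissues, the KO difference on B6;129 was larger in quadriceps than in cord by 4.91 for Ahnak2, 2.30 for Anxa4, 1.74 for Anxa2, 1.72 for Anxa1, 0.80 for Anxa5 and 0.76 for Anxa6. On the DBA mix it was larger in quadriceps by 4.41 for Ahnak2, 1.63 for Anxa1, 1.57 for Anxa2, 1.48 for Anxa4 and 0.52 for Anxa6. The treatment difference was more negative in quadriceps than in cord by a log2 difference of -3.91 for Ahnak2, -2.23 for Anxa2, -2.02 for Anxa1, -1.95 for Anxa4, -1.13 for Ahnak, -1.02 for Anxa5 and -0.42 for Anxa6. No group held enough libraries for a check of single outlying values, since each had 3.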

How the results depend on the processing

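Of 1845 member differences recomputed under the alternatives, 1807 stayed on the same side of the threshold with the same sign or while uncalled, and 60 changed sign, 0 of them while called. Apart from leaving out libraries, 2 calls were lost and 4 gained: Ahnak in treated KO against WT cord was lost with edgeR (0.83), Anxa5 in WT cord was lost under quantile normalization (0.07), and quantile normalization gained Dysf in DBA mix quadriceps (0.45), Anxa1 in WT cord (0.68) and Dysf in the B6;129 tissue difference (0.47). With the mouse as a replicate block in the tissue fits, Anxa5 on the DBA mix was gained (0.48), and the block changed no other call. Within a tissue no paired analysis was possible, because the groups compared hold different mice. Leaving out 1 library moved the members called in treated KO against WT from 0 to between 0 and 1 in quadriceps and from 3 to between 2 and 5 in cord; in the other comparisons the count stayed within 1.5 times. It lost 21 member calls and gained 11, and the 2 libraries left in a group were assumed to vary like the other groups. The count of all genes called moved by more than 1.5 times for the quadriceps background difference (40, and 10 with edgeR) and for treated against untreated KO cord (0, 3 with a pseudocount of 2, 4 with the filter at 4 and 2 with edgeR). Leaving out 1 library also moved that count, and so the share of all genes beside the members' counts: 421 became 124 to 448 in treated KO against WT quadriceps, 40 became 11 to 116 in the quadriceps background difference, 363 became 187 to 596 in WT quadriceps, 183 became 101 to 145 and 2061 became 918 to 1892 in KO cord on B6;129 and the DBA mix, 0 became 0 to 35 in treated against untreated KO cord, 2654 became 1462 to 2598 in treated KO against WT cord and 83 became 43 to 95 in the cord background difference. Trim72, Anxa1 and Myof had low signal and few reads in cord, and Trim72 was under the filter there. The cause of these shifts was not tested.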
